A study of Mus musculus with 24 samples.

Results

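The genes that encode the proteins of the cytosolic ribosome were followed in whole lung of C57BL/6 mice. They were taken by symbol, as every protein-coding row named Rpl or Rps with a number and its usual suffix letters, together with Rplp0, Rplp1, Rplp2 and Rpsa, and without the Rps6k kinases. The rule found 81 of the 23891 genes in the table, 49 of the large (60S) and 32 of the small (40S) subunit. The naïve adult group held 5 mice of 20 wk given saline, and the naïve aged group 5 mice of 80 wk given saline. In the HDM group, 7 mice of 80 wk received house-dust mite extract at 50 μg per intranasal dose. In the HDM + Dex group, 7 mice of the same age received HDM and also dexamethasone, a glucocorticoid, in doses of 4 mg/kg set 72 h apart. The left lung lobe was taken 24 h after the last HDM dose. Young mice given HDM were not analysed here, so age and allergen cannot be crossed, and Dex was given only together with HDM.

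Each ribosome carries 1 copy of nearly every ribosomal protein, built around ribosomal RNA, and the stalk proteins Rplp1 and Rplp2 are bound in several copies to Rplp0. The mRNAs of these proteins are among the most abundant of any tissue and open with a cytosine followed by a run of pyrimidines (a 5′ terminal oligopyrimidine, or TOP, start), through which mTORC1 and the RNA-binding protein Larp1 set how strongly they are translated. A few members have a paralogue used in some tissues, such as Rpl3l in heart and skeletal muscle. Most of the genes have left intronless copies across the mouse genome, which can be read as the gene itself when short fragments are assigned.

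Values are read counts scaled to a common library total (CPM) in 24 libraries, whose depth was about 10.1 to 33.1 M assigned reads. Between 9.92% and 42.0% of each library was 7SL RNA, the cytosolic RNA that guides secreted proteins to the endoplasmic reticulum, and this share differed between groups, so a scale set on the median gene (median-of-ratios) is given beside the deposited one. The library of naïve adult replicate 1 stood apart with the highest 7SL share and the lowest scale factor, 0.607 against 0.805 to 1.23 in the others. The summed level of 6 lung markers was 4260 to 17263 CPM. Xist and Ddx3y placed 2 females and 3 males in the naïve aged, 2 and 5 in the HDM and 4 and 3 in the HDM + Dex group, while the 5 adults were all female, so age and sex were partly confounded. The samples were lungs of separate mice by their labels. As these are bulk samples, fewer cells of a type and less RNA per cell cannot be told apart.

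The 81 genes together took a small and variable share of the lung transcriptome. Their summed share was 0.663% ± 0.0970 (SD, n = 5) of CPM in naïve adult lung, 0.755% ± 0.0597 (n = 5) in naïve aged lung, 0.733% ± 0.113 (n = 7) after HDM and 0.668% ± 0.192 (n = 7) after HDM + Dex. The groups overlapped widely, and the HDM + Dex lungs spread the most, from 0.440% to 0.958%. On the median-of-ratios scale, the means were 0.679% ± 0.118, 0.665% ± 0.0530, 0.766% ± 0.0527 and 0.669% ± 0.114. On that scale the HDM lungs lay between 0.675% and 0.839% and the naïve aged lungs between 0.604% and 0.748%, so the groups still overlapped.

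**Figure D1:**
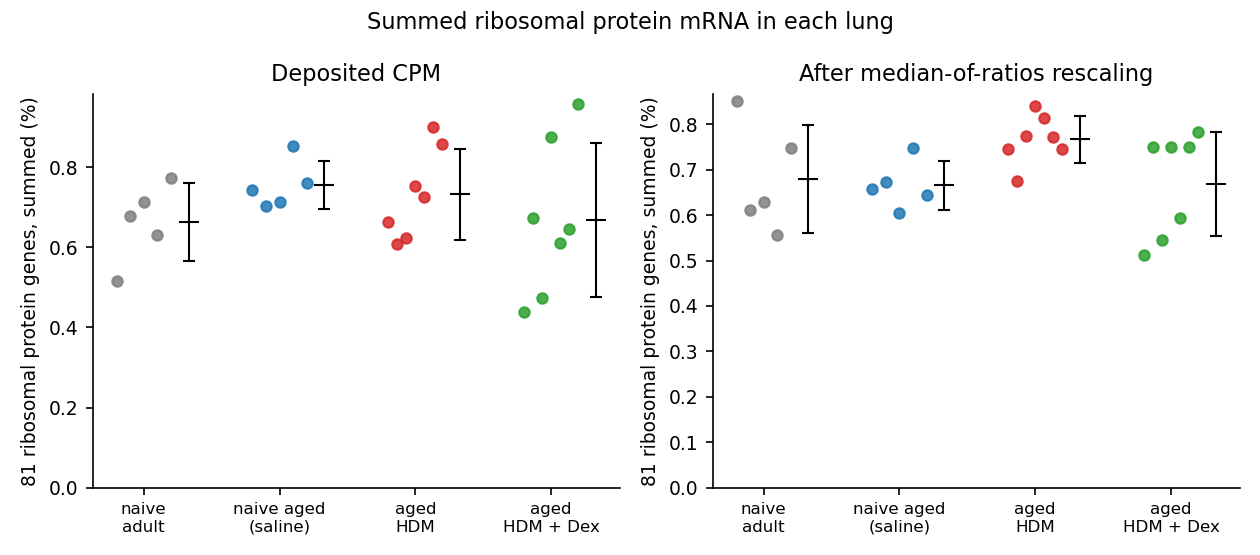
Summed share of the 81 ribosomal protein genes, in percent of CPM (left) and after median-of-ratios rescaling (right), with 1 point per lung and the group mean ± SD in black. The 7 HDM + Dex lungs ran from 0.440% to 0.958% on the deposited scale, and on the rescaled one 3 of them lay between 0.513% and 0.593% and 4 between 0.749% and 0.782%.

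The members stood at very unequal levels although their proteins are used in about equal number. Per kb of the reference transcript, genes at the high end were Rplp1, a protein of the ribosomal stalk, at 524 CPM per kb, Rpl26 at 485, Rpl13a at 400 and Rpl22 at 334. The lowest with a mean of at least 1 CPM were Rpl24 at 3.86 CPM per kb, Rps27 at 6.84, Rpl12 at 7.45 and Rpl36a at 8.95. The range among these genes was 135-fold, and the middle of the distribution ran from 21.3 to 150 CPM per kb (quartiles). Rpl3l, the muscle paralogue of Rpl3, was lower still at 0.132 CPM per kb and was the 1 member that did not reach a mean of 1 CPM, which left 80 for the tests.

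Rows of pseudogenes and retrogenes held about as many reads as the members themselves. Of the 50-base words in a member's transcript, a median of 55.4% also occurred in another annotated gene, and all but 4 members had a look-alike row in the table (a pseudogene or retrogene sharing 10 words or more). The 463 look-alike rows held a mean of 7425 CPM against 7041 CPM on the members themselves, and 38 members stood below the sum of their own look-alikes. When each member was summed with its look-alikes, the quartiles moved to 113 and 307 CPM per kb. The look-alikes took 51.0% ± 1.89 (SD, n = 24) of the joint signal, from 47.9% to 53.9% over single lungs, and the 4 group means lay between 50.3% and 52.2%. How reads that fit several places were assigned is not given in the sources used here, so the value of a single member is uncertain wherever its look-alikes are strong, and this limit holds for the members named below.

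**Figure D2:**
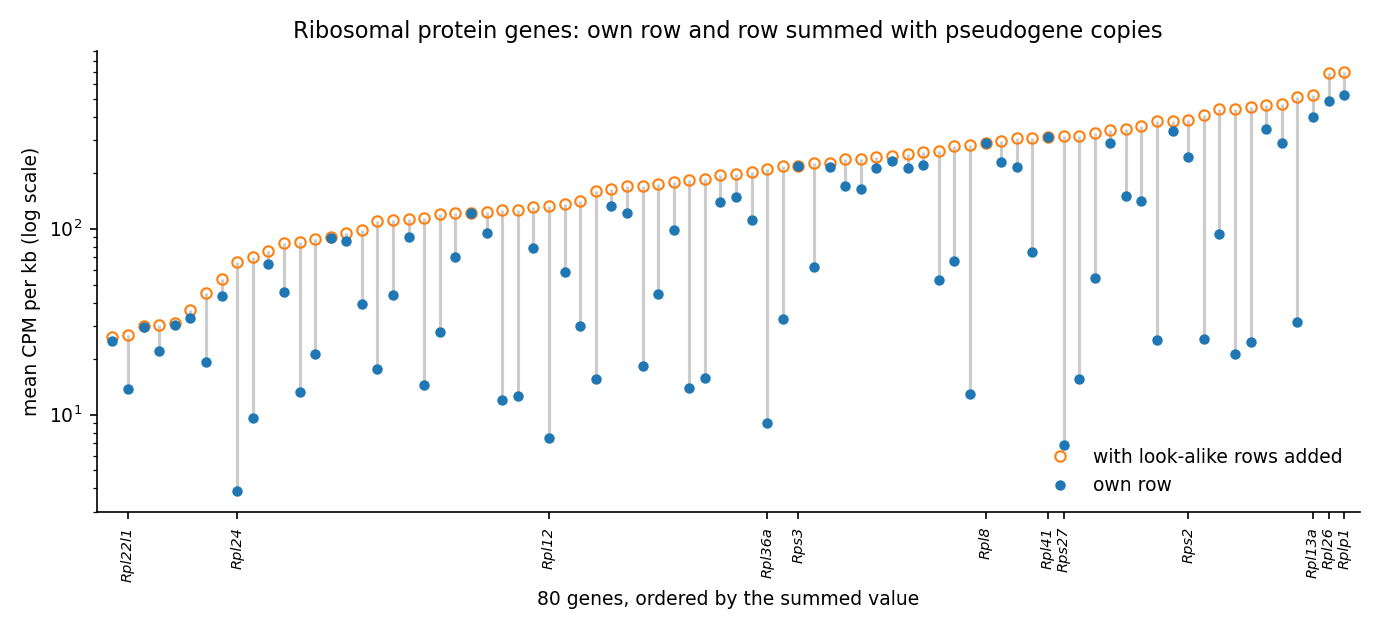
Mean CPM per kb over the 24 lungs (log axis) for the 80 members with a mean of at least 1 CPM, on the gene's own row (filled) and with its look-alike rows added (open). The grey line shows how far the added rows moved a gene, as for Rps27 from 6.84 to 314 CPM per kb, while Rps3, Rpl8 and Rpl41 hardly moved.

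Rps27, a small-subunit protein with a zinc finger, was the clearest case. The gene lies on chr3:90212522-90213651, minus strand (GRCm38), and had a mean of 2.36 CPM. Its intronless copy Rps27rt on chr9:114982366-114982739, minus strand, had 105 CPM. Over the 255 letters of the coding part, stop codon included, the copies differed at 0 positions, so a fragment from inside it cannot be told apart by its letters. The first 60 letters of the coding sequence, which both share, are shown with the start codon in capitals (GENCODE M21 transcripts).
Rps27 and Rps27rt: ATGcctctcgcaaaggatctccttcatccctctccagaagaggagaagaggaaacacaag
Rpl12, Rpl36a and Rpl10 were others of the same kind. Rpl12 had 5.64%, Rpl36a 4.29% and Rpl10 4.93% of the joint signal on their own rows, whereas Rps3 had 99.7%, Rps27l 98.6% and Rplp2 98.2%.

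The start sites of the members shared short motifs that played no part in choosing them. RefSeq starts (GRCm38.p6) were matched for 61 of 81 members. A TOP start, counted here as a C within 3 bases of the annotated first base that opens a run of at least 5 C or T, was found in 24 members (39.3%), against 11.6% of 27025 genes with a start. For members the listed start nearest the annotated 5′ end of the gene was used, and for all genes the first listed one. The shares in this paragraph are therefore not strictly like for like. Within 250 bases before and 50 after the start, on either strand, the letters CTTCCG of the ETS family were found in 67.2% of members and 17.2% of all genes, CCATNTT of the factor YY1 in 31.1% and 16.3%, and TATAAA in 9.84% and 14.2%. A match is only a match of letters in this window. The 45 bases around the start are shown for the members whose own values are taken up below, with the pyrimidine run at the start in capitals.
Rps2, chr17:24720038-24720082, plus strand: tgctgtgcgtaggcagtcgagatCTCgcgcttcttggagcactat
Rps15a, chr7:118116128-118116172, minus strand: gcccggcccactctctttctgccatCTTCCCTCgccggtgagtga
Rps7, chr12:28635934-28635978, minus strand: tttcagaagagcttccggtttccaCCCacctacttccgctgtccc
Rpl22l1, chr3:28805483-28805527, plus strand: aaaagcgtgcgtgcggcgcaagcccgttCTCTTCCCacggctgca
Rpl31, chr1:39367826-39367870, plus strand: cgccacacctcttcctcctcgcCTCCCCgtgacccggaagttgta
Rps27, chr3:90213629-90213673, minus strand: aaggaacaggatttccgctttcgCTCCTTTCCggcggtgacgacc
Rps15a, Rpl22l1, Rpl31 and Rps27 had a TOP start by this count and Rps2 and Rps7 did not. A run that opens more than 3 bases from the annotated first base is missed. The count therefore does not show that an mRNA lacks a TOP start. Members with and without one had median log2 fold changes after HDM of -0.20 (24 genes) and -0.11 (36 genes), and of 0.05 and 0.14 on the median-of-ratios scale.

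The first comparison asked what HDM did in aged lung. Most members did not pass the test, and those that did went in both directions. On the deposited scale, 6 of 80 members passed an adjusted p of 0.05 (limma on log2(CPM + 1), Benjamini-Hochberg over 17744 genes), fewer than the 25.3% of all genes tested that did. Rps2 and Rplp1 were higher (2 members, against 4.04% of all genes), and Rpl22l1, Rpl21, Rpl31 and Rps27 lower (4 members, against 21.2%). The members had a median log2 fold change of -0.17, beside -0.23 for all genes, and 73 of 80 lay within 0.5 of zero. On the median-of-ratios scale, which raises the median of all genes to -0.01, 8 of 80 members passed, beside 22.5% of all genes. All 8 were higher and 0 lower, beside 11% and 11.5% of all genes, and the members' median was 0.07. Rps2 and Rplp1 were the members called on both scales, and Rps7, Rps27l, Rps15a, Rps3, Rps20 and Rplp2 were called only on the second. By subunit, the rescaled medians were 0.03 over 48 large-subunit genes and 0.18 over 32 small-subunit genes, and 6 of the 8 called genes were of the small subunit. This difference was not tested, and it depended on the setting. With the 7SL share as a covariate, most of the called genes were of the large subunit.

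The 7SL share rose with the group, from 9.92% to 18.1% in naïve aged lungs to 14.96% to 34.0% after HDM. With 7SL and ribosomal RNA left out of the total, 7 members were higher and 0 lower, beside 10.3% and 11.7% of all genes. With the 7SL share as a covariate 11 were higher and 0 lower, beside 6.61% and 2.25%. These were largely other genes. Only Rps2, Rps15a and Rplp2 were also called on the median-of-ratios scale, and Rplp1 was not called. The rest were Rpl3, Rpl7, Rpl7a, Rpl19, Rpl23, Rpl35, Rpl41 and Rps4x. Within HDM, the 2 female lungs had 14.96% and 15.4% and the 5 male lungs 27.1% to 34.0%. The 4 lower calls did not pass on the other scales with all lungs in, except Rpl31 under quantile normalization and Rpl21 when each lung was centred on the members. The count was 2 or 3 without naïve aged replicate 1, 3 or 4 or HDM replicate 3 or 5, and 4 to 7 without any other lung. These counts are given without the share of all genes in the same runs.

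**Figure D3:**
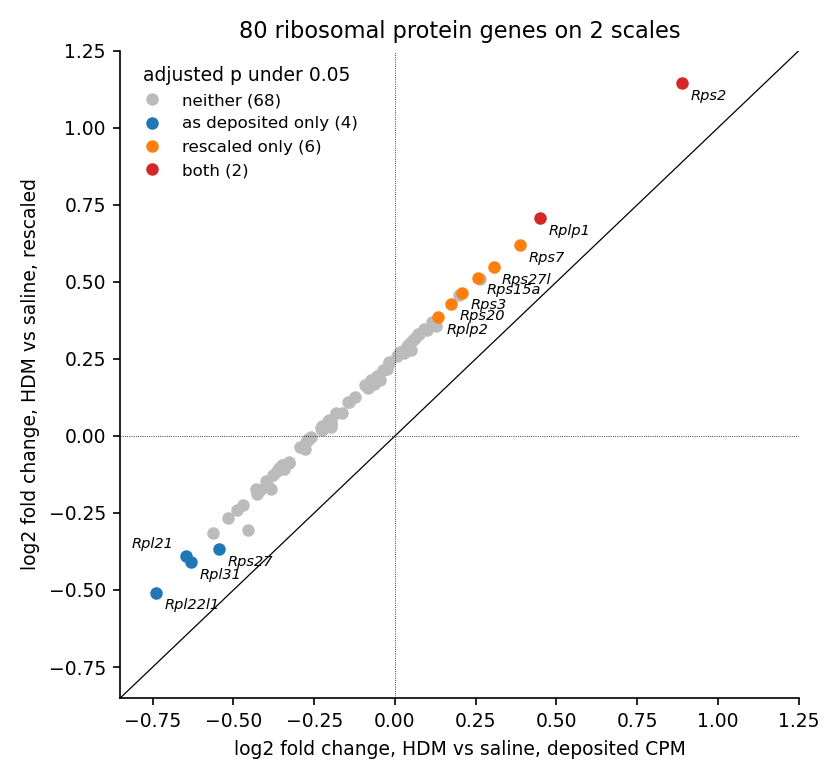
Log2 fold change of the 80 members, HDM against naïve aged lung, on deposited CPM (horizontal) and after median-of-ratios rescaling (vertical), with the line of equal values. Every point lies above that line, Rps2 stands alone at 0.89 and 1.14, and the 4 members called lower on the deposited scale lie at -0.55 or below on it.

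Rps2, a small-subunit protein at the path where mRNA enters the ribosome, changed the most. In naïve aged lung it had 134, 221, 138, 197 and 165 CPM, and in the 7 HDM lungs 217 to 392 CPM with a median of 316. A single pair overlapped, the HDM lung at 217 and the naïve aged lung at 221, so that HDM lungs were higher in 34 of 35 pairs. The log2 fold change was 0.89 ± 0.15 (SE, adjusted p = 0.00059, limma) and 1.14 ± 0.20 after median-of-ratios rescaling (adjusted p = 0.00075), where all 35 pairs agreed. The call held without any single lung on both scales, with adjusted p from 0.000104 to 0.0038 (limma). Naïve adult lungs, at 150 to 206 CPM, were at the naïve aged level as deposited. After rescaling they ran from 145 to 339, beside 117 to 211 in naïve aged lung. Within HDM, both females (312 and 326 CPM) lay inside the range of the males (217 to 392 CPM), and after rescaling (270 and 279, beside 242 to 487 in males) they lay below 4 of the 5 males.

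Rps2 has 32 look-alike rows, with 62.9% of the joint signal on its own row, and the strongest of them rose beside it. Rps2-ps10, a transcribed pseudogene, had 58.8 ± 11.6 CPM in naïve aged and 116 ± 27.4 CPM in HDM lung, a log2 fold change of 0.95 (adjusted p = 0.00067). Gm45855 went from 22.1 ± 4.55 to 40.7 ± 7.88 CPM, by 0.85 (adjusted p = 0.00054). With all look-alikes added, the change of Rps2 was 0.86 ± 0.14 (adjusted p = 0.0005, limma), so the call also held on the joint sum of these rows. Reads that fit several places and were not counted in any row are not covered by this sum. As the copies share sequence with Rps2, their values are not independent of it. The nucleolar RNA Snora64, whose gene lies inside Rps2 on chr17, was listed at 3.08 ± 2.64 CPM in naïve aged and 0.910 ± 1.42 CPM in HDM lung, a log2 fold change of -1.17 (adjusted p = 0.0325), in the other direction and at a low level.

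Rplp1 rose less. It had 183, 232, 183, 309 and 224 CPM in naïve aged lung and 251 to 359 CPM after HDM, with a median of 308. HDM lungs were higher in 31 of 35 pairs, and 1 naïve aged lung at 309 CPM lay within the HDM range. The log2 fold change was 0.45 ± 0.14 (adjusted p = 0.024), and 0.71 ± 0.18 on the median-of-ratios scale (adjusted p = 0.0073). It missed the threshold without naïve aged replicate 1 or 3 (adjusted p = 0.083 for each) or HDM replicate 3 (0.053), and with its look-alikes added (0.33, adjusted p = 0.12). Its partner in the stalk Rplp2 had 30.1, 34.7, 32.9, 34.7 and 46.2 CPM in naïve aged and 25.2 to 57.7 CPM in HDM lung, with 0.13 as deposited (adjusted p = 0.62) and 0.38 rescaled (adjusted p = 0.049). Rplp0, the base of the stalk, had 307 ± 70.6 and 355 ± 91.6 CPM and did not pass on either scale.

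Of the members called only after rescaling, Rps15a was the most regular. It had 89.7, 106, 95.5, 122 and 101 CPM in naïve aged lung and 105 to 141 CPM after HDM, with a median of 125. The groups overlapped as deposited (0.26, adjusted p = 0.25), and on the rescaled scale all 35 pairs were higher after HDM, with a log2 fold change of 0.51 ± 0.12 (adjusted p = 0.0053). Rps2, Rps15a and Rpl3 were the 3 of 80 members whose rescaled groups did not overlap, beside 7.84% of all genes, and as deposited it was 0 of 80 beside 8.71%. Rps7 was at 6.56 to 14.4 CPM in naïve aged and 9.14 to 14.7 CPM in HDM lung, and gave 0.62 ± 0.19 rescaled (adjusted p = 0.022) and 0.39 ± 0.20 as deposited (adjusted p = 0.15). With its look-alikes added, these became 0.28 (adjusted p = 0.18) and 0.03 (adjusted p = 0.93). Rps3, which carries few look-alikes and lines the mRNA entry of the small subunit, gave 0.46 rescaled (adjusted p = 0.028) and 0.21 as deposited (adjusted p = 0.19).

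The 4 members called lower after HDM were low or strongly shared rows. Rpl22l1, a paralogue of Rpl22 that can take its place in the large subunit, had 12.4, 11.1, 7.13, 13.1 and 8.24 CPM in naïve aged lung and 3.21 to 8.83 CPM after HDM, with a median of 6.72. Its log2 fold change was -0.74 ± 0.21 (adjusted p = 0.015), HDM lungs were higher in only 3 of 35 pairs, the call held without any single lung, and it held with the look-alike added (-0.49, adjusted p = 0.04). On the median-of-ratios scale it was -0.51 ± 0.22 (adjusted p = 0.10). Rpl22 itself had 181 ± 15.9 and 154 ± 36.3 CPM (-0.27, adjusted p = 0.37). Rpl31, a protein at the exit of the peptide tunnel, had 10.4, 7.03, 8.54, 8.37 and 6.91 CPM against 2.98 to 6.95 CPM, with -0.63 ± 0.20 (adjusted p = 0.028), and was not called once its look-alikes were added (-0.58, adjusted p = 0.21). Rpl21 had 200, 119, 175, 172 and 151 CPM against 61.4 to 135 CPM, with -0.65 ± 0.24 (adjusted p = 0.0495), and lost the call without 12 of the 19 lungs in turn. With the 7SL share as a covariate its change turned to 0.058 (adjusted p = 0.87). Rps27 had 3.86, 2.49, 2.78, 3.13 and 2.33 CPM against 1.11 to 2.68 CPM, with -0.55 ± 0.18 (adjusted p = 0.033), while its identical copy Rps27rt had 111 ± 25.5 and 100 ± 13.8 CPM (-0.13, adjusted p = 0.66).

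**Figure D4:**
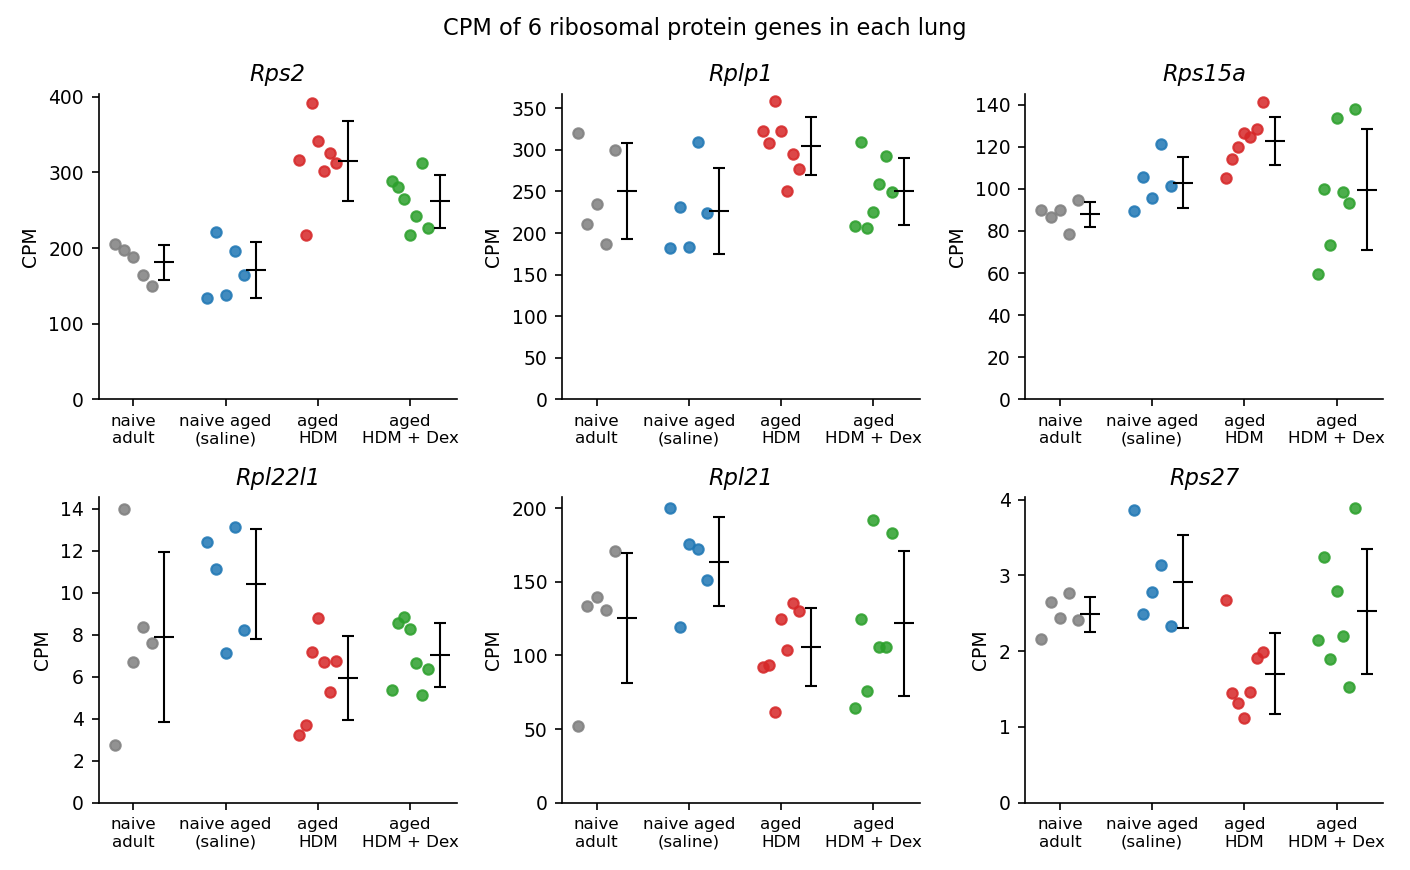
CPM of Rps2, Rplp1, Rps15a, Rpl22l1, Rpl21 and Rps27 in each lung, with 1 point per lung and the group mean ± SD in black; each axis starts at 0. Rps2 is high in HDM and HDM + Dex lung, from 217 CPM upward, while HDM lungs lie low beside naïve aged lungs for Rpl22l1, Rpl21 and Rps27. For Rpl22l1 the HDM + Dex lungs lie about as low, at 5.13 to 8.84 CPM.

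Other genes of the ribosome and its synthesis were read from lists. Their counts after HDM stand beside 4.04% of all genes called higher and 21.2% lower as deposited. After rescaling these shares were 11% and 11.5%. Fau, Rack1 and Rpl36al, also of the cytosolic ribosome, had 0 calls in any comparison on either scale in limma, with log2 fold changes after HDM of -0.17, 0.09 and -0.30 and adjusted p of 0.397 to 0.745. Of 25 translation factors and other TOP mRNAs, 1 was higher after HDM (Vim, the intermediate filament vimentin, 0.53) and 1 lower (Nap1l1, a histone chaperone, -0.68). On the rescaled values 6 were higher, Vim, Eef1b2, Eef1g, Eif3h, Eif3k and Pabpc1, and 0 lower. Of 39 ribosome biogenesis factors, Eif6, which keeps the subunits apart, was higher (0.47, adjusted p = 0.014), and Sbds, which releases it, was lower (-0.42, adjusted p = 0.022), as was the kinase Riok2 (-0.44, adjusted p = 0.027). Rescaled, 5 were higher and 0 lower, namely Eif6 at 0.72, Fbl, Nop16, Bop1 and Pes1. Of 14 RNA polymerase I genes, Taf1b was lower on both scales (-0.67 and -0.45) and Twistnb as deposited (-0.39), with Polr1d higher rescaled (0.46). Of 20 genes in the control of ribosomal protein synthesis, Deptor, an inhibitor of mTOR, was lower (-0.49, adjusted p = 0.013) and Gabpa, an ETS factor, was lower (-0.42, adjusted p = 0.023). Both were called only as deposited, while Myc was called only after rescaling (0.73, adjusted p = 0.022). Of 78 mitochondrial ribosomal protein genes, 0 were higher and 1 lower after HDM (Mrps17, -0.73), with a median of -0.14, and rescaled 4 were higher and 1 lower.

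Small nucleolar RNA genes lie within introns of 30 members, 58 in all by the GRCm38 annotation, and 20 of them had a row. Of the 11 with a mean of at least 1 CPM, Snord15a inside Rps3 was higher after HDM, from 111 ± 20.3 to 194 ± 51.3 CPM (0.78, adjusted p = 0.00578), and Snora64 was lower, as given above. In the other 3 comparisons 0 of the 11 passed in limma.

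Dexamethasone was tested by HDM + Dex against HDM. The members were lower in most cases by a small amount, and 0 of 80 passed, beside 0.964% of all genes. At an unadjusted p of 0.05, 4 members passed, beside 13.5% of all genes. The median log2 fold change of the members was -0.14, beside 0.03 for all genes, with 67 members below zero and 13 above, and 80 of 80 within 0.5 of it. On the median-of-ratios scale, the median was -0.19 beside 0.00 for all genes, 69 were below zero, and again 0 passed, beside 2.85% of all genes. Under other settings the members' median ran from -0.176 to 0.067 without that scale and from -0.219 to -0.045 on it. Runs without HDM + Dex replicates 1 and 3 were among these settings. The sign of the median therefore depended on the setting, and the parts of processing and of the lungs included were not separated. Rps15a came nearest with -0.39 ± 0.11 rescaled (adjusted p = 0.059) and -0.35 ± 0.15 as deposited (adjusted p = 0.29). Rplp0 lay at the low end on the deposited scale with -0.37 ± 0.21, and Rps27 (0.37 ± 0.17), Rpl24 (0.30 ± 0.29) and Rpl22l1 (0.24 ± 0.19) lay at the other end, with adjusted p of 0.32 to 0.73 for these 4. Rps2 had 217 to 312 CPM in HDM + Dex lung with a median of 265, and HDM + Dex lungs were lower than HDM lungs in 40 of 49 pairs. The log2 difference of -0.26 ± 0.14 did not pass the test (adjusted p = 0.42). This comparison and the one before share the HDM lungs. Of the look-alikes of Rps2, Gm45855 was lower in HDM + Dex than in HDM lung, at 26.2 ± 2.80 CPM (-0.60, adjusted p = 0.029), and Rps2-ps10 had 86.0 ± 10.9 CPM (-0.40, adjusted p = 0.21).

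**Figure D5:**
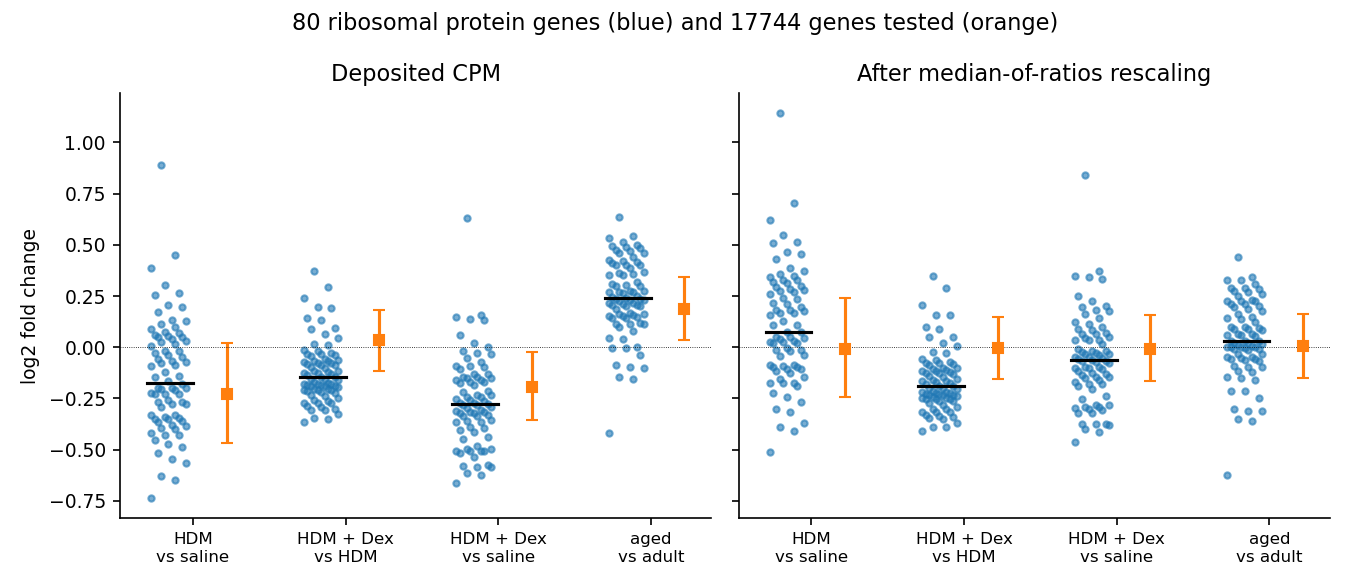
Log2 fold change of the 80 members in each comparison (blue points, median as a black bar) beside the median and quartiles of all 17744 genes tested (orange), as deposited (left) and rescaled (right). In HDM + Dex against HDM, the members' medians were -0.14 and -0.19 beside 0.03 and 0.00 for all genes, and the single high point in the HDM comparisons is Rps2.

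On the median-of-ratios scale, the HDM + Dex lungs fell apart in their summed level. Their rescaled shares, replicates 1 to 7, were 0.513%, 0.749%, 0.545%, 0.750%, 0.593%, 0.749% and 0.782%. Replicates 1, 3 and 5 were the 3 low ones, and no HDM + Dex lung lay between 0.593% and 0.749%. As deposited, replicate 5 at 0.610% lay close to replicates 6 and 2, at 0.646% and 0.673%, so no such gap parted it from them. A wide rescaled spread was not particular to this group, as naïve adult lungs ran from 0.557% to 0.851%. The summed level of 5 markers of dividing cells, in CPM divided by the scale factor, was 52.0, 176, 35.0, 310, 79.9, 323 and 289 in the same order, and that of 6 T cell markers 21.1, 36.1, 21.4, 39.3, 29.8, 47.8 and 71.6. That of 8 B and plasma cell markers was 75.8, 230, 132, 312, 132, 349 and 489. The 3 lungs with a low share were the 3 lowest in each of these lists, but not in these alone. They were also the 3 lowest in the 6 lung markers, at 6102, 8381 and 8350 beside 8607 to 11977 in the other 4, and in the mitochondrial ribosomal protein genes, at 812, 779 and 807 beside 879 to 1008. The same held for the translation factors and other TOP mRNAs, at 4540, 4851 and 5395 beside 5524 to 6026. Other lists did not follow. The ribosome biogenesis factors were at 1480, 1468 and 1456 in these 3 lungs, within the 1376 to 1800 of the other 4. RNA polymerase I genes were at 415, 403 and 396 beside 357 to 403. For myeloid markers, replicate 5 at 1926 lay above replicates 2 and 6, at 1509 and 1768. On the deposited scale the sums of dividing cell markers ran from 96.6 to 256 CPM in naïve aged, 65.0 to 370 CPM in HDM and 30.5 to 363 CPM in HDM + Dex lung, those of T cell markers from 23.6 to 81.6, 35.7 to 103 and 18.1 to 87.7 CPM, and those of B and plasma cell markers from 102 to 700, 196 to 714 and 65.0 to 599 CPM. The part of any of these cells in the result was not tested. Replicates 1 and 3 were males and 5 a female. Rpl32, Rpl35, Rps25 and Rpsa were among those that followed the mean of the other members closely over all lungs, with r of 0.93, 0.91, 0.89 and 0.89 after group means were removed on the rescaled scale (n = 24 lungs, a description). The median member had r = 0.57 beside -0.02 for all genes, and 14 members passed 0.8, beside 0.237% of all genes. Rps2 (-0.003), Rpl22l1 (0.002) and Rpl37a (0.01) did not follow it.

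HDM + Dex was also set against naïve aged lung. Rps2 was the 1 member of 80 called, beside 1.89% of all genes, and was higher in HDM + Dex lung in 34 of 35 pairs. Its log2 fold change was 0.63 ± 0.15 (adjusted p = 0.035), and 0.84 ± 0.20 rescaled (adjusted p = 0.043, beside 0.952% of all genes called on that scale). Summed with its look-alikes it was 0.53 ± 0.14 (adjusted p = 0.047). The call was lost without naïve aged replicate 1, 3, 4 or 5 or HDM + Dex replicate 1, 2, 3 or 6, where adjusted p ran from 0.054 to 0.115 with log2 fold changes of 0.55 to 0.69. The median of the members was -0.28, beside -0.19 for all genes, and -0.06 beside -0.01 on the rescaled scale. Rpl35a (-0.66 ± 0.30), Rpl18 (-0.62 ± 0.30) and Rpl26 (-0.61 ± 0.27) were the lowest, with adjusted p of 0.21 to 0.23, and Rpl12 (0.15) and Rplp1 (0.16) the highest after Rps2. Among the genes that control ribosomal protein synthesis, Ddit4, an mTORC1 inhibitor that glucocorticoids are known to induce, was lower here (-1.05 ± 0.26, adjusted p = 0.041), and -0.85 rescaled without passing. As deposited, Ddit4 was already at -0.59 in HDM against naïve aged lung, without Dex. It was at -0.46 in HDM + Dex against HDM, and was called in neither.

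Aged against adult lung gave 0 called members of 80, beside 0.654% of all genes, and 8 members passed at an unadjusted p of 0.05 in limma, beside 11.2% of all genes. With sex as a covariate, again 0 of 80 passed on either scale. As deposited, 71 members were higher in aged lung, with a median of 0.24, beside 0.19 for all genes. On the median-of-ratios scale, 0 of 80 passed, beside 1.07% of all genes, and the median was 0.03 beside 0.01, with 48 above zero and 32 below. Without naïve adult replicate 1, the deposited median fell to 0.14. Rpl17 (0.64 ± 0.27), Rps28 (0.54 ± 0.24) and Rpl35a (0.53 ± 0.25) were the highest and Rpl37 (-0.42 ± 0.28), Rps7 (-0.15 ± 0.22) and Rplp1 (-0.14 ± 0.22) the lowest, with adjusted p of 0.38 to 0.77. Rpl3 was the 1 member whose groups did not overlap as deposited, beside 3.09% of all genes, with 74.1, 95.8, 95.1, 86.2 and 65.0 CPM in adult and 108, 104, 117, 97.5 and 102 CPM in aged lung (0.35 ± 0.18, adjusted p = 0.46). Its groups overlapped on the rescaled scale.

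Paralogues stood at unequal levels per length over the 24 lungs. Rpl3 had a mean of 74.6 CPM per kb and Rpl3l 0.132, Rpl22 had 334 and Rpl22l1 13.8, Rpl7 had 211 and Rpl7l1 24.8, and Rps27 had 6.84 and Rps27l 30.5 CPM per kb, where Rps27 reached 314 with its look-alikes. Rpl3l was at 0.530, 0.0700, 0.338, 0.201 and 0.396 CPM in naïve aged lung, at 0 to 0.272 CPM after HDM and at 0 to 0.412 CPM after HDM + Dex, where the median lung was at 0. A library's 3 reads corresponded to 0.0906 to 0.298 CPM, so most of these values rest on few reads and no test was made. The 12 heart muscle markers were all lower after HDM, and their sum was 658 to 1281 CPM in naïve aged, 32.1 to 528 CPM in HDM and 74.7 to 1460 CPM in HDM + Dex lung. Whether the Rpl3l reads come with that muscle was not tested. Rps27l, the paralogue of Rps27 and a target of p53, had 14.3 ± 1.92 CPM in naïve aged and 18.1 ± 3.31 CPM in HDM lung (0.31 ± 0.16, adjusted p = 0.16), and 0.55 ± 0.17 rescaled (adjusted p = 0.028). Rpl7, Rpl7l1, Rpl39, Rpl10 and Rps4x, at means of 246, 32.5, 18.0, 12.4 and 95.7 CPM, did not pass in any comparison on either of the 2 scales.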

How the data were processed

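RNA was from the left lung lobe of 24 mice, sequenced as mRNA libraries with paired-end reads. The deposited values are CPM with a constant of 0.0001 added, which was taken off. Per the labels, the authors' processing used FastQC, STAR and DESeq2 with build mm9, but all 81 members have the start positions of GRCm38 (GENCODE M21), whose coordinates are given. How strand and multiply mapped reads were handled is not given in the sources used here. Low values were whole multiples of 1 read in 80.8% to 85.6% of cases (within 0.05 read), which gave the depths. Counting error applies beside the spread between mice.

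Groups were tested with limma 3.58.1 (R 4.3.3; trend, empirical Bayes) on log2(CPM + 1), so fold changes of low genes are understated, in the 17744 genes whose mean reached 1 CPM. Aged groups shared a fit over 19 lungs, and aged against adult used 10. P-values were adjusted by Benjamini-Hochberg. The median-of-ratios scale divides each lung by its median ratio to the geometric mean of genes. Members and lists were chosen with earlier results of these data known. Named genes were the paralogues, the 5 highest and 5 lowest per kb, the 3 extreme fold changes each way per comparison (deposited, and centred on the members), and the extremes of each list. Others were named after their values were seen. Some genes that the rule names are not reported here. Other scales, filters, pseudocounts, covariates, weights and left-out lungs were tried. Tables were made in Python 3.11.15.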

Additional observations from a re-analysis of the deposited data

Results flagged for a closer look

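In 68 groups examined over 17 measures (the summed share on both scales, the paralogues and the called members), 4 had a lung that stood apart by Dixon's ratio. Chance flags about 1 in 20, which is 3.4 here, so the number of flags is near what chance gives. Naïve adult replicate 1 had 154.5 CPM of Rpl7 beside 240.5 to 271.4 CPM in the other 4 adults, and it is the library with 42.0% of 7SL RNA. Naïve adult replicate 5 had 1.075 CPM of Rpl3l beside 0.0494 to 0.205 CPM. HDM + Dex replicate 4 had 0.412 CPM of Rpl3l beside 0 to 0.0945 CPM. HDM replicate 3 had 21.95 CPM of Rpl10 beside 9.63 to 13.8 CPM in the other 6 HDM lungs.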

How the results depend on the processing

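The call of Rps2 after HDM kept its direction and passed under all 22 other settings and without any single lung. The number of members called after HDM, 6, was 13 with sample quality weights (beside 44.4% of all genes), 11 with the 7SL share as a covariate (8.85%), 1 at a threshold of 0.01, 2 with look-alikes added (25.7%) and 11 with look-alikes added and rescaled (22.7%). Without HDM + Dex replicates 1 and 3 it was 10 on the rescaled scale. It ran from 2 to 7 with 1 lung left out, and from 3 to 12 with 1 left out on the rescaled scale, as for HDM + Dex against HDM from 0 to 2 (rescaled) and HDM + Dex against naïve aged from 0 to 1 on both scales. HDM + Dex against HDM gave 1 with the 7SL share as a covariate (3.17%). HDM + Dex against naïve aged gave 29 with sample quality weights (28 of them lower, beside 30.8% of all genes called and 28.2% lower), 2 with sex as a covariate (10.9%), and 0 centred on the members, without the trend, with the 7SL share, at a threshold of 0.01 and without HDM + Dex replicates 1 and 3 on either scale. Aged against adult gave 1 with sample quality weights (4.42%). No share over all genes is given beside the counts at a threshold of 0.01 or with lungs left out. Those counts show only how the number of calls moved. The causes were not tested.

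The median after HDM was 0.074 rescaled (also without HDM + Dex replicates 1 and 3), 0.050 after quantile normalization, 0.055 without 7SL and ribosomal RNA and 0.113 with look-alikes added and rescaled. That of HDM + Dex against HDM reached 0.067 under other settings without median-of-ratios rescaling. That of HDM + Dex against naïve aged was 0.061 rescaled without HDM + Dex replicates 1 and 3, and that of aged against adult 0.031 rescaled (also without those lungs) and 0.033 with look-alikes added. With 1 lung left out, the medians ran from -0.214 to -0.103 (HDM), -0.240 to -0.0533 (HDM + Dex against HDM), -0.362 to -0.172 (HDM + Dex against naïve aged) and 0.138 to 0.289 (age). After HDM, Rpl21 turned to 0.058 with the 7SL share as a covariate and Rps27 to 0.12 with look-alikes added and rescaled.

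Replicate numbers did not pair the lungs, with median correlations of same-numbered deviations between -0.0964 and 0.00647. With the replicate block, 11 members were called after HDM (31.8% of all genes), 3 in HDM + Dex against naïve aged lung (5.06%), and 0 in the latter with the block and rescaling. The summed shares by group were 0.962%, 0.961%, 1.09% and 0.963% without 7SL and ribosomal RNA and 0.974%, 1.13%, 1.09% and 0.988% with named pseudogenes, and that of naïve aged lung 0.665% rescaled. Depth limits Rpl3l and other values near 3 reads, 0.0906 to 0.298 CPM.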
